A study of Mus musculus with 6 samples.

Results

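The genes described here are 30 genes of DNA replication and S phase, picked by name from the textbook machinery of genome duplication and read in every library from the count that ignores strand. All 30 were found among 48709 gene IDs, each under 1 ID, and all 30 passed the filter on low counts that left 15385 genes for testing. RNA came from the dissected neocortex of C57BL/6 mouse embryos at embryonic day E15.5. The 3 wild-type embryos (WT) were compared with 3 embryos of the genotype Rest(+/deltaExon4) (Rest_het), in which 1 allele of the transcriptional repressor gene Rest lacks exon 4. The labels give no sex, litter or batch and do not say how the allele was carried, and reads of a LacZ sequence occurred only in WT (27, 51 and 43 reads) while reads of a Cre-ERT2 sequence occurred only in Rest_het (10, 16 and 17 reads), so the groups differed in more than the Rest allele. P-values measure the spread between these 6 samples.

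A cell copies its genome by licensing origins in G1, when CDC6 and CDT1 load the MCM helicase onto DNA, and by firing them in S phase, when cyclin E with CDK2 and the kinase CDC7 with its activator DBF4 turn the helicase on with CDC45 and the GINS complex. Polymerase alpha with its primase then starts each strand, the clamp PCNA is loaded by replication factor C, and ribonucleotide reductase and thymidylate synthase supply the building blocks. Many of these genes are transcribed under E2F factors as cells commit to S phase. In the embryonic neocortex the dividing cells are apical and intermediate progenitors, while newborn neurons have left the cycle. In bulk tissue, fewer dividing cells and less RNA per dividing cell cannot be told apart.

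The promoters of the genes were searched for the E2F-type octamer. Promoter sequence was not read in choosing the genes. Many of them are known to be transcribed under E2F factors, though, so the share with a match is not independent of the choice. RefSeq promoter windows of GRCm38.p6, from 250 bases before to 50 after each start, were found for 26 of the 30 genes (not for Mcm4, Gins2, Ccne2 and Rfc2), and the octamers TTTCCCGC, TTTCGCGC, TTTGCCGC and TTTGGCGC were searched on both strands. At least 1 match lay in the windows of 11 of the 26 genes (42.3%), against 2.6% of all 27025 genes with a window and 4.62% of the 10804 tested genes with one. Of 74 other replication genes of a fixed list, 20 of the 58 with a window held a match (34.5%), and of 34 genes of mitosis and G2 it was 1 of the 30 with a window (3.33%). The 170 bases before the start are shown for 4 genes with a match there, 2 helicase subunits, the loading factor gene Cdc6 and the polymerase gene Pola1, and the first 121 of these bases for Ung, the gene with the largest genotype difference among the 30, whose window held no match. The Cdc6 stretch precedes its RefSeq start, but GENCODE also has transcripts that begin upstream, so it lies 180 to 349 bases after the first annotated start of the gene, in an intron of those but for its first base. Bases are given 5′ to 3′ along the gene, with matches in capitals.
Mcm5, chr8:75109339-75109508, strand +: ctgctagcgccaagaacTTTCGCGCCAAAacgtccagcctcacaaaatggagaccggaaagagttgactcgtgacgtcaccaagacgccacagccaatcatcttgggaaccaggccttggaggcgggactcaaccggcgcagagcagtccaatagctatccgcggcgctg
Mcm6, chr1:128359706-128359875, strand -: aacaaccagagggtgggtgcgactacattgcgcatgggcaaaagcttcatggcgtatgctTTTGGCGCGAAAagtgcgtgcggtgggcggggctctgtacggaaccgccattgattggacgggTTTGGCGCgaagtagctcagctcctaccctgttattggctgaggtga
Cdc6, chr11:98907981-98908150, strand +: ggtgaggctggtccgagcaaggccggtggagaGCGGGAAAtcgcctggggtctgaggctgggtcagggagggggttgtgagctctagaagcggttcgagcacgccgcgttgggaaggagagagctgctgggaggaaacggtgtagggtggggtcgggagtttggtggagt
Pola1, chrX:93632156-93632325, strand -: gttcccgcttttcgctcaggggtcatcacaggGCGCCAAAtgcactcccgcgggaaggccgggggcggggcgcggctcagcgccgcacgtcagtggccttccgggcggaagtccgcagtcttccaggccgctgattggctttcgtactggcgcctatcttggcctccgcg
Ung, chr5:114130265-114130385, strand +: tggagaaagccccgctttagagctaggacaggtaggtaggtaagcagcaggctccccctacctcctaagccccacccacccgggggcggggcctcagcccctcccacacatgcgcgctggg
In the Mcm5 stretch, capitals mark overlapping matches on opposite strands, at 153 and 149 bases before the start. The Mcm6 stretch holds 3 matches, an overlapping pair at 110 and 106 bases and another at 47 bases before the start. The stretches of Mcm7, Hells and Dtl also held a match but overlap annotated exons and are not shown. The matches of Cdt1, Clspn and Mcm3 lie just after the start, and that of Uhrf1 lies farther upstream than the stretches shown. A match is a run of letters and was not tested as a binding site. The 11 genes with a match had a median log2 fold change between genotypes of -0.036, and the 15 without one -0.055.

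Levels were compared per length by RPKM, the library-scaled read count (CPM) divided by the kilobases of all annotated exons of a gene. Rrm2, the regulated small subunit of ribonucleotide reductase, averaged 108 RPKM over the 6 libraries, followed by the thymidylate synthase gene Tyms at 46.3 RPKM and the cyclin gene Ccne2 at 41.7 RPKM. By the strand columns, described below, Ccne2 passed Tyms, and the flap nuclease gene Fen1 moved from rank 27 to rank 4. The clamp gene Pcna and the helicase gene Mcm7 were level, at 31.8 RPKM each. At the other end lay the repressor gene E2f8 at 0.896 RPKM and the uracil glycosylase gene Ung at 0.681 RPKM. Rrm2 and Tyms together took 30.2% of the summed CPM of the 30 genes.

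None of the 30 genes passed the test between genotypes (edgeR quasi-likelihood test, Benjamini-Hochberg adjusted p under 0.05), where 19 of 15385 genes, 0.123%, did. The smallest adjusted p among them was 0.32, for Ung. DESeq2 called 0 of the 30 too. Before adjustment, 3 of 30 genes had an edgeR p under 0.05, with Ung and Cdt1 higher and Ccne2 lower in Rest_het, against 11.7% of all tested genes. That count was 5 without WT replicate 1 (Mcm7 and Rrm2 added) and 6 without Rest_het replicate 3 (Cdc45, Dtl and Mcm7 added), while without Rest_het replicate 2 it was 2 (Cdt1 lost). The 3 libraries of one group lay above the 3 of the other for 6 of 30 genes, against 19.3% of all tested genes, so this share is near the background. The higher ones were Ung and Cdt1 (10.4% of all tested genes were higher without overlap) and the lower ones Ccne2, Mcm7, Mcm10 and Prim1 (8.94% were lower without overlap). Of the 30 genes 19 had a log2 fold change below 0, or 63.3% against 49.1% of all tested genes, and the median was -0.038 against 0.0054. This tilt moved with single libraries: 15 of 30 genes lay below 0 without WT replicate 3 (median -0.019), 16 without Rest_het replicate 1 (-0.018), 18 without WT replicate 2 (-0.024), 20 without Rest_het replicate 3 (-0.088) and 24 without WT replicate 1 (-0.080).

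The set was also measured more tightly than the typical gene. The interval of the fold, 1.96 standard errors on each side, stayed within 1.5-fold in either direction for 25 of 30 genes and within 2-fold for 29, against 54.2% and 79.7% of all tested genes. Such intervals, here and below, are narrower than the edgeR test allows. For Mcm7 (0.781 to 0.988) and Prim1 (0.803 to 0.999) they excluded an unchanged level, though the unadjusted edgeR p was 0.062 and 0.082. The counts and shares inside each band may thus be too high. The median ratio of the highest to the lowest library was 1.28 for the 30 genes and 1.52 for all tested genes. The genes were also more abundant than most, with a median of 43.96 CPM against 12.0 CPM.

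**Figure D1:**
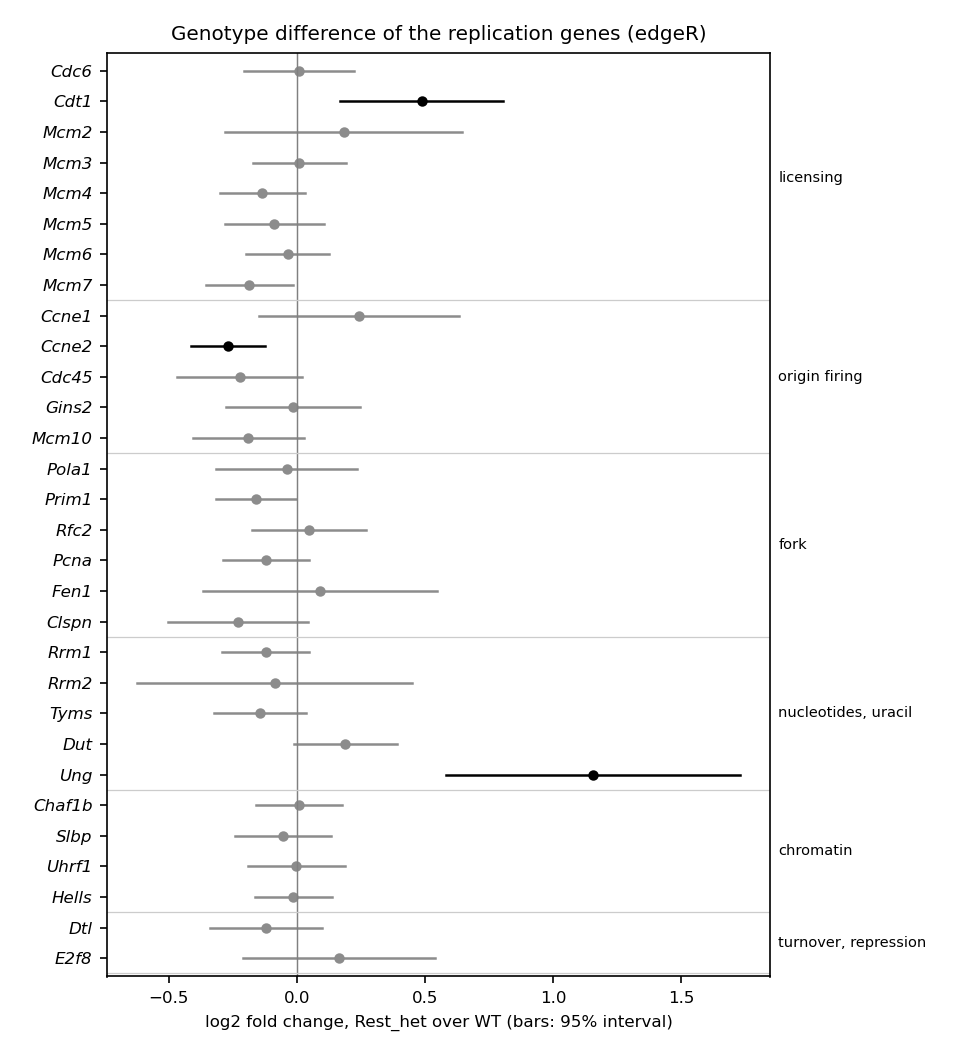
Each point is the log2 fold change of 1 replication gene between 3 Rest_het and 3 WT libraries by edgeR, with bars of 1.96 SE, in the order of their roles; black marks the 3 genes with an unadjusted p under 0.05. Ung stands apart at 1.16, while 27 of the 30 genes have a fold within 1.2 in either direction.

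Licensing genes showed no common direction: 4 of 8 lay above and 4 below 0, and 0 were called. CDT1 loads the helicase and is destroyed once S phase begins. Cdt1 measured 4.58, 5.11 and 5.19 CPM in WT and 6.91, 7.75 and 6.21 CPM in Rest_het libraries. Every Rest_het value lay above every WT value. The fold was 1.40, with an interval from 1.12 to 1.75 and an edgeR adjusted p of 0.36, on 96 to 140 reads per library. Its loading partner Cdc6 measured 18.9 ± 1.85 CPM in WT, while Rest_het libraries held 19.0 ± 0.859 CPM (SD, n = 3), a fold of 1.01 with an interval from 0.866 to 1.17.

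The helicase itself is a ring of 6 different subunits, yet its genes were not measured at equal levels. In each of the 6 libraries Mcm7 was the highest and Mcm2 the lowest per length, and their ratio ran from 3.14 in Rest_het replicate 2 to 6.88 in WT replicate 1. Mcm7 measured 33.8 ± 2.01 RPKM in WT and 29.7 ± 2.03 RPKM in Rest_het (SD, n = 3). Mcm3 measured 20.3 and 20.4 RPKM, Mcm4 18.8 and 17.1, Mcm5 15.2 and 14.3, and Mcm6 9.52 and 9.29 in the same order. The lengths count all annotated exons, so a gene with long rarely used exons is set too low by them.

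**Figure D2:**
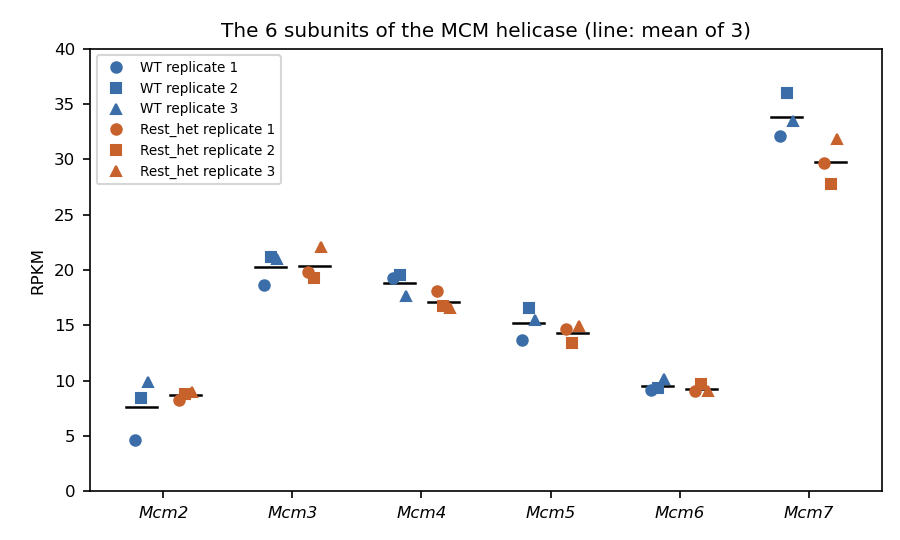
RPKM of the 6 helicase subunit genes in each library, with a line at the mean of each group of 3. Mcm7 is the highest and Mcm2 the lowest in every library, and WT replicate 1 stands apart for Mcm2.

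Mcm7 measured 142, 159 and 148 CPM in WT and 131, 123 and 141 CPM in Rest_het. The groups did not overlap, though WT replicate 1 and Rest_het replicate 3 were nearly level. The fold was 0.879, with an interval from 0.781 to 0.988. The edgeR p of Mcm7 was 0.062 unadjusted and 0.44 adjusted. Mcm7 (GRCm38 chromosome 5, from 138164583 to 138172422) lies 0.057 Mb from Zkscan1, a zinc-finger gene that was called and fell by 0.72 in log2 units (adjusted p of 0.012 by edgeR). Mcm6 (chromosome 1, from 128331590 to 128359664) lies 0.65 Mb from the called gene Tmem163, and its own fold was 0.975, with an interval from 0.872 to 1.09.

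Mcm2 turned on 1 library. It measured 32.5 CPM in WT replicate 1 but 58.6 and 68.9 CPM in the other WT libraries, and 57.2, 61.5 and 62.7 CPM in Rest_het. Its log2 fold change was 0.18 with all libraries and -0.077 without WT replicate 1. Mcm3, Mcm4 and Mcm5 were less uneven, since WT replicate 1 held 69.96, 69.3 and 54.6 CPM for them, against 79.5, 70.2 and 66.2 CPM in WT replicate 2.

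Of the origin firing genes 4 of 5 lay below 0, and 0 were called. Cyclin E, which activates CDK2 at the start of S phase, has a pair of genes of unequal level here. Ccne2 averaged 41.7 RPKM and Ccne1 2.68 RPKM over the 6 libraries. Ccne2 measured 166, 155 and 157 CPM in WT and 131, 129 and 136 CPM in Rest_het, on 2336 to 3476 reads per library. The groups were clearly apart, and the spread within each was small. Its fold was 0.83, with an interval from 0.752 to 0.917, an unadjusted p of 0.0062 and an edgeR adjusted p of 0.33. Ccne1 measured 4.92, 7.32 and 7.35 CPM in WT and 6.69, 8.36 and 8.12 CPM in Rest_het. WT replicate 1 was the lowest and the other libraries overlapped (fold 1.18, interval from 0.903 to 1.55). The difference between the responses of the 2 cyclin genes was not tested.

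The other firing factors join the helicase at the origin. Mcm10 measured 40.7, 41.3 and 39.0 CPM in WT and 30.01, 37.4 and 38.7 CPM in Rest_het, all Rest_het values below all WT values but mainly 1 of them low. Its fold was 0.877 (interval from 0.755 to 1.02). Cdc45, which rides on the helicase, measured 18.3, 18.8 and 19.5 CPM in WT and 14.5, 15.2 and 18.8 CPM in Rest_het. Rest_het replicate 3 lay inside the WT range (fold 0.856, interval from 0.722 to 1.01). Gins2, a subunit of the GINS complex, measured 16.5 ± 1.88 and 16.3 ± 1.79 CPM (SD, n = 3), on a count that left out many reads, as described below. Summed over the 5 genes, WT libraries held 240 to 244 CPM and Rest_het libraries 198 to 220 CPM, a sum that Ccne2 dominates.

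At the fork, 4 of 6 genes lay below 0 and 0 were called. Prim1, the catalytic subunit of primase, measured 53.5, 50.6 and 54.8 CPM in WT and 45.9, 49.7 and 46.6 CPM in Rest_het. The groups did not overlap, by less than 1 CPM between their nearest values (fold 0.895, interval from 0.803 to 0.999). The edgeR p of Prim1 was 0.082 unadjusted and 0.47 adjusted. Its partner Pola1, the catalytic subunit of polymerase alpha, did overlap, at 13.98 ± 1.47 and 13.6 ± 1.75 CPM (SD, n = 3). Pcna measured 79.6 ± 4.11 and 73.2 ± 4.77 CPM, a fold of 0.92 with an interval from 0.818 to 1.03. The clamp loader gene Rfc2 had a fold of 1.03 (interval from 0.885 to 1.21), and Clspn, the checkpoint adaptor claspin, 0.853 (interval from 0.706 to 1.03).

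For nucleotide supply, the genes of the reductase and of thymidylate synthase did not separate the genotypes. Rrm2 varied most among the abundant genes: it measured 177, 439 and 306 CPM in WT and 263, 300 and 306 CPM in Rest_het. The lowest and the highest of all 6 values were both WT libraries, and the Rest_het libraries lay between them. Its log2 fold change was -0.086, but -0.36 when WT replicate 1 was left out and 0.26 when WT replicate 2 was. The large subunit gene Rrm1 did not share this spread, at 104, 119 and 111 CPM in WT and 95.5, 104 and 107 CPM in Rest_het. Tyms measured 297, 290 and 300.3 CPM in WT and 236, 276 and 291 CPM in Rest_het, with a fold of 0.905 (interval from 0.799 to 1.03).

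2 genes of this group keep uracil out of DNA, and both had a fold above 1. Dut, which hydrolyses dUTP, measured 39.0, 34.6 and 38.0 CPM in WT and 37.7, 46.3 and 43.1 CPM in Rest_het, with overlap (fold 1.14, interval from 0.991 to 1.31). Ung, which cuts uracil out of DNA, had 38, 53 and 45 reads in WT and 104, 116 and 64 reads in Rest_het, or 1.81, 2.79 and 2.31 against 5.61, 6.42 and 3.39 CPM. All Rest_het values lay above all WT values, with replicate 3 nearest to WT. Its fold was 2.23, with an interval from 1.498 to 3.32, an unadjusted p of 0.0041 and an edgeR adjusted p of 0.32. By DESeq2 its adjusted p was 0.055 and with no count filter 0.077, so it was called by neither. It was the scarcest of the 30 genes per length.

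Ung (chromosome 5, from 114130386 to 114139323) lies 0.588 Mb from Git2, a called gene that rose by 1.77 in log2 units. Rest itself lies on chromosome 5 too, from 77265491 to 77286432, as does Mcm7. Of 36 other tested genes within 1 Mb of Ung, 27 had a log2 fold change above 0, with a median of 0.196. Over all 15385 tested genes 7832 lay above 0. An unadjusted p under 0.05 was reached by 7 of the 36 on the higher side, Git2 included, and 1 on the lower, against 6.97% and 4.72% of all tested genes. The 1 Mb window was chosen after these values were seen, and the part of this neighbourhood in the Ung difference was not tested. Within 1 Mb of Mcm7 33 of 48 genes lay above 0, but among those below the same unadjusted cutoff 5 were lower and 3 higher. The lower ones included Zscan21 (log2 fold change -0.27) and Zfp113 (-0.36), which start between Zkscan1 and Mcm7. Cops6, which also starts there, was among the higher ones (0.27). Within 1 Mb of Mcm6 4 of 14 genes lay above 0, and 4 lower and 1 higher gene met that cutoff. In all, 3 of the 30 genes, Ung, Mcm7 and Mcm6, lie within 1 Mb of a called gene, and 315 of the 15385 tested genes do.

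**Figure D3:**
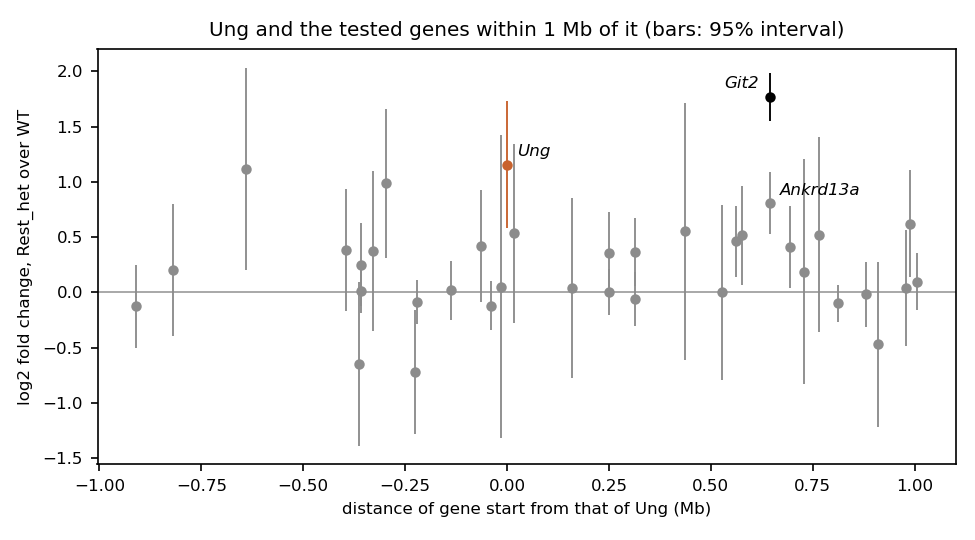
Log2 fold change between Rest_het and WT (edgeR, bars of 1.96 SE) for Ung, in orange, and 36 tested genes within 1 Mb, against the distance between gene starts. Git2, in black, is the called gene, and 27 of the 36 neighbours lie above 0.

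Genes that rebuild chromatin behind the fork were the most even of the 6 roles, with a median ratio of highest to lowest library of 1.14, folds between 0.962 and 1.01 and 0 of 4 called. Hells, a chromatin remodeller of the DNA methylation machinery, measured 55.6, 55.5 and 57.7 CPM in WT and 54.0, 55.2 and 57.9 CPM in Rest_het. Its highest library was 1.07 times its lowest, the smallest ratio of the 30 genes. Uhrf1, which reads hemimethylated DNA for the maintenance methylase, had a fold of 0.998 (interval from 0.875 to 1.14). Chaf1b, a subunit of the histone chaperone CAF-1, had a fold of 1.01 (interval from 0.896 to 1.13), and Slbp, which binds the stem-loop of histone mRNAs, 0.962 (interval from 0.845 to 1.096). Of the genes that limit replication, Dtl, the ubiquitin ligase receptor that removes CDT1, measured 46.2, 46.98 and 44.5 CPM in WT and 37.7, 39.8 and 49.1 CPM in Rest_het, with overlap. The E2F-family repressor gene E2f8 had a fold of 1.12 (interval from 0.864 to 1.45).

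**Figure D4:**
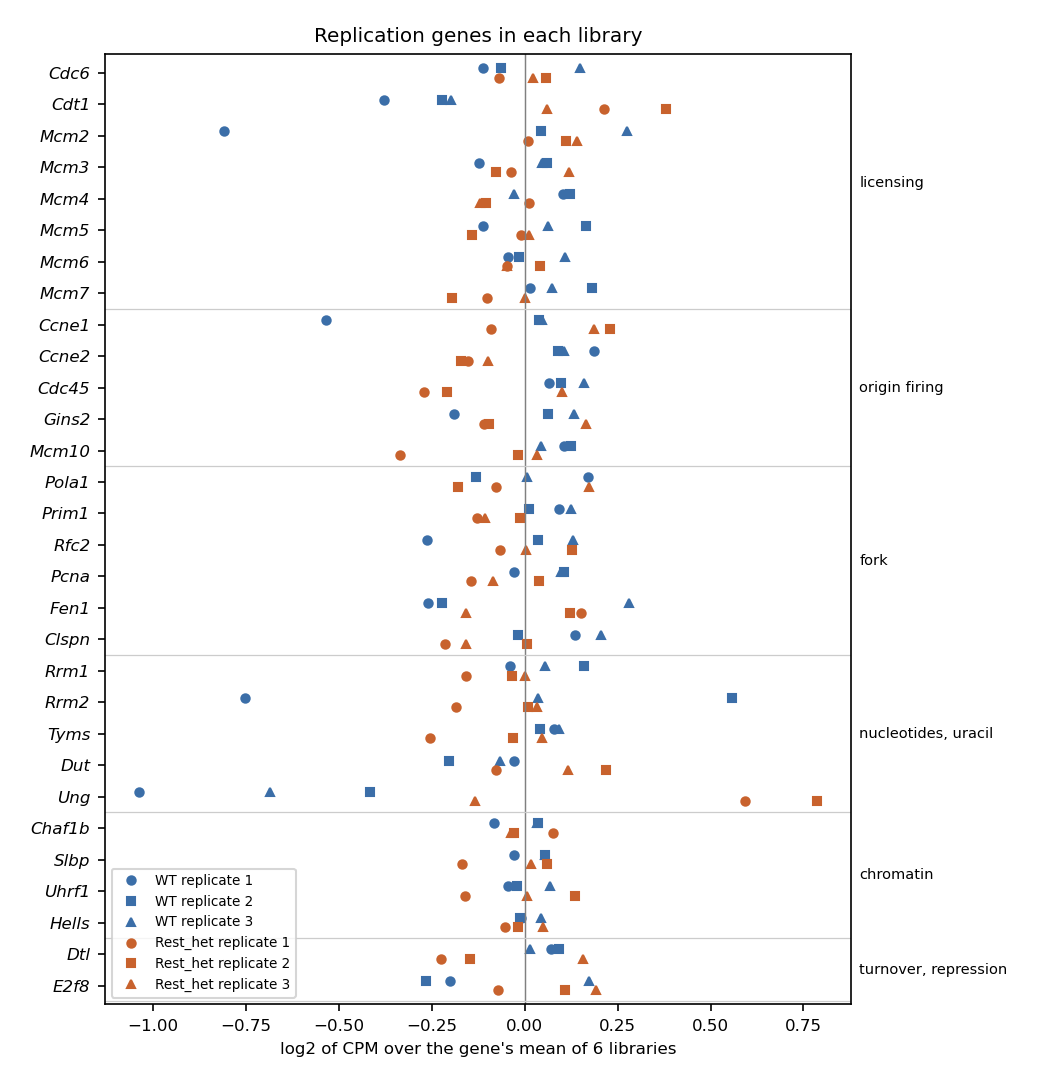
For each replication gene, the log2 of its CPM in a library over its mean of 6 libraries, with WT in blue and Rest_het in orange and a symbol for each replicate. Most points lie close to 0, while WT replicate 1 stands low for Mcm2, Ccne1, Rrm2 and Ung and WT replicate 2 high for Rrm2.

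The extremes of the genes were unevenly spread over the libraries. WT replicate 1 was the lowest library for 11 of 30 genes (36.7%, against 25.2% of all tested genes) and Rest_het replicate 1 for 12 (40%, against 16.2%). WT replicate 3 was the highest for 9 and the lowest for 0. Summed over the 30 genes, WT libraries held 1775, 2135 and 2022 CPM and Rest_het libraries 1754, 1894 and 1943 CPM. The ranges of the groups overlap.

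How reads over overlapping genes were counted moved the read number of 4 of the 30 genes by over 1.2 times. Per gene, the deposited files hold a count without strand, which sets a read aside when it falls on exons of 2 genes, and a count for each strand, which does not when those genes run in opposite directions. The library chemistry does not mark strand, so the sum of both strand columns takes in reads of the overlapping gene. For Fen1, the flap nuclease that trims Okazaki fragments, the count without strand held 373 reads in all 6 libraries and the strand columns 11684, or 31.3 times as many. The antisense gene Gm10143 covers 78.8% of its exon bases. For Gins2, of whose exon bases Gse1 covers 67.3%, the ratio was 2.79, for Ccne2 1.26 and for E2f8 1.21. Over all genes with at least 60 reads 3.93% had a ratio above 2, and the median was 1.

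Thus the level of Fen1 in the count without strand, 3.16 ± 0.696 CPM in WT and 3.36 ± 0.384 CPM in Rest_het (SD, n = 3), rested on 53 to 77 reads per library from the uncovered part of the gene. The strand columns held 1814, 1892 and 2141 reads in WT and 1774, 1999 and 2064 reads in Rest_het. The groups overlap in both counts. The log2 fold change was 0.089 (SE 0.23) without strand and 0.092 (SE 0.10) by the strand columns. For Gins2 it was -0.016 (SE 0.13) and 0.033 (SE 0.078), for Ccne2 -0.27 and -0.28, and for E2f8 0.16 and 0.27. With the sum of strand columns for every gene, 0 of the 30 were called.

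**Figure D5:**
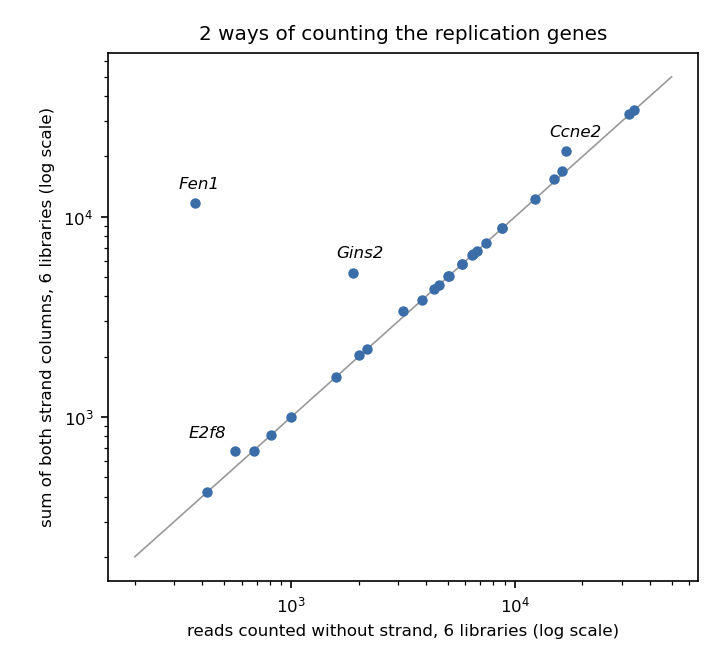
Reads of each replication gene summed over 6 libraries, counted without strand (horizontal, log scale) and as the sum of both strand columns (vertical, log scale), with a line of equality. Fen1 lies 31.3-fold and Gins2 2.79-fold above the line.

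Of 74 other replication genes, all tested, 0 were called by edgeR and 0 by DESeq2. Before adjustment 6 had an edgeR p under 0.05, all on the lower side: Cdc7, Top2a, Nasp, Pole, Orc3 and Tipin. These are 8.11% of the list, against 11.7% of all tested genes in either direction and 4.72% on the lower side. Cdc7, the kinase that fires origins, measured 196, 178 and 169 CPM in WT and 136, 153 and 142 CPM in Rest_het, without overlap (log2 fold change -0.33, SE 0.088, edgeR adjusted p 0.33). Its activator Dbf4 measured 14.99, 19.8 and 17.2 CPM in WT and 12.8, 10.6 and 16.4 CPM in Rest_het, with overlap (log2 fold change -0.38, SE 0.18, edgeR adjusted p 0.45). Top2a, the topoisomerase of dividing cells, had a log2 fold change of -0.28 (SE 0.081), the histone chaperone Nasp -0.22 (SE 0.073), the leading-strand polymerase Pole -0.38 (SE 0.13), the origin subunit Orc3 -0.19 (SE 0.075) and the fork-protection gene Tipin -0.22 (SE 0.093), with edgeR adjusted p between 0.35 and 0.42.

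Further partners of the 30 genes differed less clearly. Gmnn, whose product geminin blocks CDT1, had a log2 fold change of -0.22 (SE 0.10), the primase partner Prim2 -0.24 (SE 0.11), the RNase H2 subunit Rnaseh2a -0.26 (SE 0.12) and the clamp loader gene Chtf18 0.47 (SE 0.23), with edgeR adjusted p of 0.43 to 0.47. By the strand columns Chtf18 was at 0.30 (edgeR adjusted p 0.57). Rnaseh2a, with 4.37 times as many reads in those columns, was at -0.19 (edgeR adjusted p 0.44). Of 12 genes on that list for E2F factors, their DP partners and the pocket proteins, 0 had an unadjusted edgeR p under 0.05 in the count without strand. By that count 11 overlapped between the groups. E2f1 measured 6.55 ± 1.12 and 6.66 ± 0.641 CPM, Rb1 7.80 ± 0.741 and 8.14 ± 0.758 CPM and Rbl1 12.6 ± 1.09 and 12.1 ± 1.15 CPM (SD, n = 3). Rbl2, a pocket protein gene, depended on the counting: its log2 fold change was 0.296 without strand and -0.43 by the strand columns, which held 6.75 times as many reads. The strand columns held 1575, 1475 and 1595 reads of Rbl2 in WT and 968, 1203 and 1045 in Rest_het, without overlap. By them its edgeR p was 0.0033 unadjusted and 0.32 adjusted. Without strand its groups did not overlap either, but with Rest_het higher. Over the 74 genes 38 lay below 0 and the median was -0.0081.

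Beside these, 28 of 34 genes of mitosis and G2 lay below 0, with a median of -0.11, and 0 were called by edgeR and 0 by DESeq2. Before adjustment 4 of the 34 had an edgeR p under 0.05, all on the lower side. That is 11.8% of the list, against 11.7% of all tested genes in either direction and 4.72% on the lower side. Without overlap 7 of the 34 were lower and 0 higher, against 8.94% and 10.4% of all tested genes. This list shares Top2a and Ccna2 with the other replication genes, and the difference between the lists was not tested. Their sum was 2031 to 2144 CPM in WT and 1815 to 2098 CPM in Rest_het. Apical progenitor markers, 15 of 15 tested, summed to 1926 to 2239 CPM in WT and 1968 to 2134 CPM in Rest_het, and intermediate progenitor markers, 9 of 10 tested, to 452 to 548 and 443 to 535 CPM. Both ranges overlap between the groups. Of the apical markers 11 of 15 lay above 0 (median 0.12, 1 of 15 with an unadjusted p under 0.05). Of the intermediate progenitor markers 6 of 9 lay above 0 (median 0.33), and 0 were called by edgeR or DESeq2. An unadjusted p under 0.05 was found for 4 of 9 (44.4%), against 11.7% of all tested genes. Hes6 was on the higher side and Eomes, Insm1 and Btg2 on the lower. Neuron markers, 12 of 12 tested, did not overlap, at 4915 to 5365 CPM in WT and 4334 to 4574 CPM in Rest_het, and 10 of the 12 lay below 0. Of these 0 were called by edgeR and 2 by DESeq2, Map2 (log2 fold change -0.60) and Snap25 (-0.39). Among the 15385 genes tested by edgeR, DESeq2 called 126. Of the neuron markers 4 (33.3%) had an unadjusted edgeR p under 0.05, all on the lower side. That share was 11.7% for all tested genes, and 4.72% on the lower side. The part of these cell types in the replication genes was not tested.

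Markers of further tissues and cell types were read beside these. Choroid plexus and hem markers, 5 of 8 tested, summed to 38.2 to 90.5 CPM in WT and 36.2 to 405 CPM in Rest_het, with Folr1 at 0 CPM in WT replicates 2 and 3. Blood vessel markers, 8 of 8 tested, summed to 212 to 328 CPM in WT and to 1536, 1237 and 313 CPM in Rest_het. The pericyte gene Rgs5 carried this rise, at 216, 152 and 180 CPM in WT and 1430, 1159 and 196 CPM in Rest_het. Another pericyte gene, Pdgfrb, measured 8.54, 4.16 and 6.74 CPM in WT and 9.12, 6.36 and 9.55 CPM in Rest_het. All 8 markers overlapped between the groups. The sums of erythroid, meningeal, ventral telencephalic and microglial markers overlapped between the groups. Of 7 microglial markers 2 did not overlap, P2ry12 lower and C1qb higher in Rest_het, against 19.3% of all tested genes. The part of these cells in the replication genes was not tested. Rest itself was at 20.6 ± 0.777 CPM in WT against 18.1 ± 1.23 CPM in Rest_het (SD, n = 3; edgeR adjusted p 0.49), a gene total that does not check the loss of exon 4. Libraries held 17835117 to 20753653 gene reads.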

How the data were processed

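RNA of 6 neocortices was made into cDNA with an oligo dT primer and a template-switching oligo and tagmented, per the labels' protocols, which give neither strand marking nor molecular identifiers. The deposited values are raw read counts for each gene. The submitters' processing notes name STAR 2.5.2a and the build GRCm38.p4. Unmapped reads (1.21 to 1.45%), multimapping (6.29 to 7.48%), unannotated (21.4 to 26.9%) and ambiguous ones (2.54 to 2.85%) stayed out of library sizes. The deposited table normalized with DESeq2 was not used here.

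Symbols matched 48349 of 48709 gene IDs, and exons and positions came from GENCODE for GRCm38. The counts were fitted with edgeR 4.0.16 in R 4.3.3 (TMM scaling, filterByExpr with a minimum count of 10 and a total of 15, quasi-likelihood test, genotype as the single term), on all 15385 genes that passed, with Benjamini-Hochberg adjustment over them. CPM values use the TMM-scaled library sizes, and an SE was taken as the log2 fold change over the root of F. The script was tested on simulated data. Alternatives were DESeq2 1.42.0, its size factors in edgeR, no count filter, the replicate number as a block and each library left out. The sum of strand columns was added after the data were seen.

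The members and lists were chosen with earlier results of these data known. Named were all 30 members, Rest, the 12 genes of the longer replication list with the smallest p, 6 partners of members, and the called genes nearest to a member. Reads include PCR copies.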

Additional observations from a re-analysis of the deposited data

Results flagged for a closer look

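Reads of a Cre-ERT2 sequence, which lies outside the gene counts, summed to 43 in the 3 Rest_het libraries (10, 16 and 17) against 0 in the 3 WT libraries.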

How the results depend on the processing

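No replication gene was called under any alternative run, while the number of all called genes, 19, became 131 by DESeq2, 107 with no count filter and 12 to 35 when single libraries were left out. With the replicate block it was 6. Same-numbered libraries did not deviate together (correlations of -0.0081, 0.050 and -0.16), and WT replicate 2 alone among the WT libraries correlated best with its own number. Under the block the log2 fold change of Rrm2 was 0.0058. By the sum of strand columns it was 0.033 for Gins2, -0.43 for Rbl2 and -0.023 for Rb1. The sign of 17 of the 45 named replication genes turned in at least 1 alternative, 13 of them among the 30, and the other 28 kept theirs. Of these 28, 11 moved by over 1.5 times when 1 library was left out: Ccne1 to 0.073 without WT replicate 1, Mcm5 to -0.16 without WT replicate 1 and -0.023 without WT replicate 2 and -0.038 without Rest_het replicate 2, E2f8 to 0.11, 0.082 and 0.31 without WT replicates 1, 2 and 3, Rrm1 to -0.070 and Tipin to -0.13 without WT replicate 2, Rrm1 to -0.078, Mcm10 to -0.086 and Tyms to -0.063 without Rest_het replicate 1, Dut to 0.12 and Dbf4 to -0.24 without Rest_het replicate 2, Cdc45 to -0.34 without Rest_het replicate 3, and Dtl to -0.049, -0.079 and -0.24 without Rest_het replicates 1, 2 and 3. With single libraries left out, log2 fold changes ran from -0.36 to 0.26 for Rrm2, -0.077 to 0.41 for Mcm2, -0.043 to 0.091 for Cdc6, -0.049 to 0.051 for Mcm3, -0.066 to 0.011 for Mcm6, -0.11 to 0.049 for Gins2, -0.14 to 0.041 for Pola1, -0.060 to 0.13 for Rfc2, -0.0089 to 0.28 for Fen1, -0.030 to 0.034 for Chaf1b, -0.098 to 0.0093 for Slbp, -0.072 to 0.069 for Uhrf1, -0.037 to 0.0070 for Hells, -0.061 to 0.17 for E2f1, -0.0019 to 0.14 for Rb1 and -0.13 to 0.023 for Rbl1. The cause was not tested. Counts of Ung, Cdt1, E2f8 and Fen1 were low, which limits their precision.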
